A study of Panicum sumatrense with 28 samples.

Results

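In the young leaf of Panicum sumatrense, the cereal little millet, 150 assembled transcripts were low or listed at 0 that were present in every library of 9 other tissues. They were chosen from the 101935 transcripts of the deposited table by a score: the lowest value in the 25 libraries outside young leaf, plus 1, divided by the highest of the 3 young leaf values, plus 1. A score above 1 was reached by 2442 transcripts, or 2.40% of the table, and the 150 with the highest scores were kept. Young leaf against the other tissues is what chose them, so those values are given as a description, with no test. The last transcripts taken in, TRINITY_DN3996_c1_g1_i1 and TRINITY_DN35359_c0_g1_i1, both scored 3.35, and the first left out, TRINITY_DN13250_c0_g3_i1 and TRINITY_DN16473_c0_g1_i2, both scored 3.34. The limit thus falls within a continuous series of scores.

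Plants of genotype JK-8 were raised in a growth chamber. Young leaf was harvested 13 days after sowing, on the same day as young root. Of the younger material, germinating seed came from day 2, and plumule and radicle (the first shoot and first root) from day 3. Of the older tissues, crown meristem came from day 26 and vegetative stem from day 48. The panicle, the flower head that bears the grain, was taken early (day 61), mid (day 73) and late (day 85). Each tissue had 3 libraries, except young root and vegetative stem with 2. Nothing in the labels says that the libraries of a tissue came from separate plants, so p-values measure the spread between these libraries, which may be technical.

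Values are TPM, the share of reads assigned to a transcript after correction for its length, which the authors scaled by TMM, 1 factor per library that aligns most transcripts. The lowest library sum was 660796 (panicle early 1) and the highest 3202138 (young root 2). Such values keep no read totals, so the depth is unknown. The identifiers carry no gene names, so the functions of the transcripts are not given and the tissue labels were not checked against marker genes.

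As background, the leaf blade of a grass seedling is a photosynthetic organ, and in C4 grasses such as millets mesophyll and bundle sheath cells share the work of carbon fixation. New leaf cells form at the base of the blade, and cells towards the tip have stopped dividing and expanding. The radicle, crown meristem and early panicle contain meristems, in which cells divide. In bulk tissue, fewer cells of a type and less RNA per cell cannot be told apart.

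In young leaf, 16 of the 150 transcripts were listed at 0 in all 3 libraries. In all, 59 stayed below 1 in every young leaf library, a further 59 had a highest value of 1 to below 5, and 32 reached 5 or more, up to 43.1. Outside young leaf the lowest library of a transcript ran from 2.49 to 187, with a median of 12.1. For the 134 transcripts with a young leaf mean above 0, the mean over the 9 other tissues was 7.87 to 4492 times the young leaf mean, with a median of 41.4 times. The median level over the 150 transcripts was 1.20 in young leaf. It was 45.4 in plumule, the shoot of the seedling, and 54.4 in young root, taken on the same day as the leaf. Together they made up 0.0379% to 0.0495% of the young leaf library totals and 0.576% to 2.80% of the others.

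The low values were shared by the 3 young leaf libraries. When the rule was run with 1 of them left out, the left-out library lay below all 25 libraries of the other tissues for 149 of the 150 transcripts then chosen (library 1), for 148 (library 2) and for 149 (library 3). Over the whole table, scores above 1 numbered 2859, 2609 and 2571 without libraries 1, 2 and 3, and 2442 of each kept such a score with all 3. As the libraries may be technical repeats, these counts are a description. From the library identifiers in the sample descriptions, 15 libraries form a series A and 13 a series B, and every young leaf library is in A. Series A also holds germinating seed, plumule, crown meristem and part of the root libraries. Which library used which RNA extraction method is not given, so its effect on tissue differences was not tested. Without young leaf library 1, 111 of the 150 stayed among the 150 highest scores, and with series A alone 70 did.

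**Figure D1:**
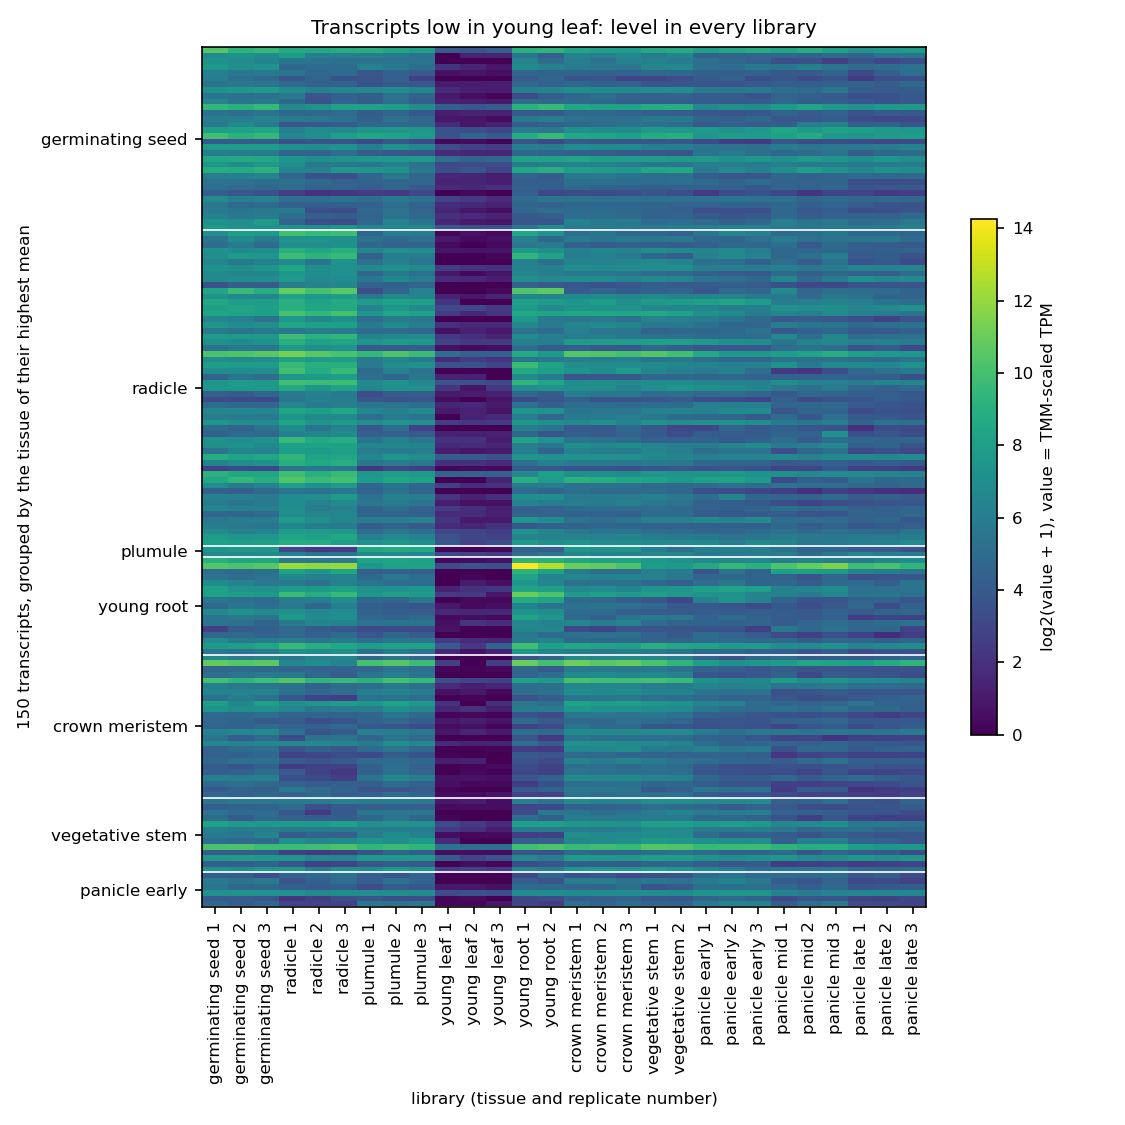
Level of the 150 transcripts (rows, grouped by the tissue outside young leaf with the highest mean) in the 28 libraries (columns), as log2(value + 1). The 3 young leaf columns are dark because this chose the transcripts, and the largest group is the 55 transcripts with their highest mean in radicle.

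The transcript with the highest score was TRINITY_DN12185_c0_g1_i21, at 34.5, against 13.5 for the next. In young leaf it had 0.214, 0.398 and 0.576. It had 629 and 533 in young root, 506, 342 and 334 in germinating seed, 340, 261 and 313 in crown meristem, 303, 318 and 274 in plumule, and 201 and 154 in vegetative stem. In panicle early it had 102, 90.5 and 95.4, in panicle mid 63.8, 81.4 and 66.9, in panicle late 53.4, 89.5 and 119, and in radicle 56.7, 58.2 and 62.4. In the deposited scaling the 2 root ages thus lay at opposite ends of its range outside the leaf, with every young root library above every radicle library. The library sums were 2753439 and 3202138 in young root but 711327 to 736450 in crown meristem. Whether young root stays the highest tissue under another scaling was not tested.

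Several of the leading transcripts were root-high. TRINITY_DN780_c0_g2_i1 had 0.140, 0.649 and 0.250 in young leaf, 990, 737 and 920 in radicle, 331 and 150 in young root, 142, 251 and 209 in germinating seed, and from 21.3 to 88.5 in the 17 libraries of the other tissues. TRINITY_DN780_c0_g1_i2, a second gene of the same assembly component, was listed at 0 in young leaf libraries 1 and 2 and at 0.124 in library 3. It had 858, 607 and 753 in radicle, 660 and 296 in young root, and 14.9, 17.1 and 10.4 in panicle late. Both transcripts were highest in the roots and germinating seed, with no overlap between the radicle libraries and those of plumule.

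TRINITY_DN2050_c0_g1_i2, with 0.318, 0 and 0.285 in young leaf, had 134, 133 and 161 in radicle and stayed between 15.1 and 61.9 in every other library outside the leaf. TRINITY_DN3209_c1_g1_i2 had 0.965, 0.358 and 0.518 in young leaf, 156, 161 and 142 in radicle, and 24.0 to 115 elsewhere. TRINITY_DN3700_c1_g1_i2 had 0.846, 0.754 and 0.760 in young leaf, 503, 342 and 511 in radicle, and 17.9, 19.6 and 22.4 in panicle late. In each of the 3, all radicle libraries lay above all libraries of any other tissue.

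The other leading transcripts had different profiles. TRINITY_DN59154_c0_g1_i2 was listed at 0 in the 3 young leaf libraries and was highest in crown meristem, with 97.0, 92.4 and 103, and lowest in young root, with 11.6 and 23.4. TRINITY_DN24478_c0_g4_i1 was also listed at 0 in young leaf, and had 583 and 309 in young root, 305, 171 and 334 in radicle and 262, 271 and 206 in panicle mid, but 18.0, 20.0 and 19.1 in plumule. TRINITY_DN18319_c1_g1_i1 had 5.59, 0 and 5.07 in young leaf, 2209, 1555 and 1997 in crown meristem, and 91.0, 117 and 78.5 in radicle. It was the reverse of the radicle-high transcripts: radicle was its lowest tissue outside young leaf, below every library of the other 8.

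**Figure D2:**
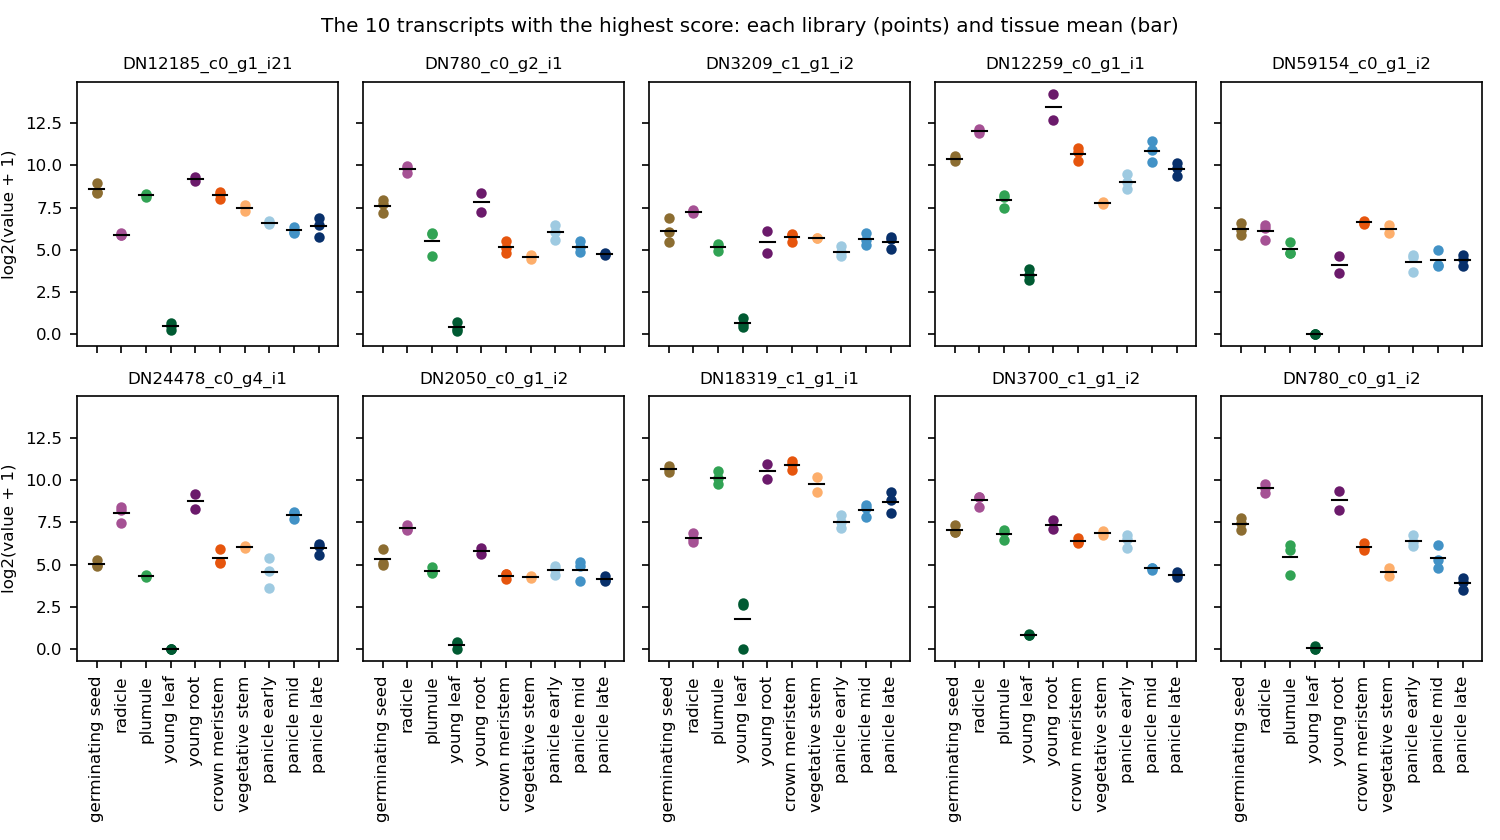
Log2(value + 1) of the 10 transcripts with the highest score in each library (points, by tissue) with the mean of these log2 values per tissue (bars). Young leaf is the lowest group in all 10 panels, by the rule, while the highest group differs between panels.

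The most abundant of the 150 was TRINITY_DN12259_c0_g1_i1, with 8.46, 13.3 and 10.3 in young leaf, 19572 and 6512 in young root, 4520, 3892 and 4184 in radicle, and 180, 284 and 305 in plumule. Its 2 young root libraries differed by more than the whole level of any other tissue. TRINITY_DN65853_c0_g2_i1 was more even, with 1419 and 1269 in vegetative stem, 957 and 1284 in young root, 230, 179 and 192 in panicle late, its lowest tissue outside the leaf, and 43.1, 37.5 and 36.1 in young leaf.

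TRINITY_DN2428_c1_g1_i1 had 36.8, 19.5 and 20.9 in young leaf and a wide radicle range of 2621, 1586 and 1144. TRINITY_DN16473_c0_g2_i1 had 9.91, 6.90 and 5.99 in young leaf and 1110, 946 and 935 in crown meristem. These 4 and TRINITY_DN18319_c1_g1_i1 had the highest means over the 9 tissues, from 575 to 2685.

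Among the 9 tissues outside young leaf, the highest tissue mean of a transcript was 2.15 to 130 times the lowest, with a median of 7.32 times. The range exceeded 10-fold for 42 transcripts and was under 3-fold for 9 (6%). By the moderated F test of limma, at an adjusted p of 0.05, all 150 differed among the 9 tissues, where 58.3% of the 77548 transcripts tested did. A fairer background is formed by the 7204 transcripts that, like the 150, never fell below 2.49 outside young leaf, here called widely present. Of these, 97.2% differed among the 9 tissues, close to the share among the 150. Their median range was 4.85-fold, with 17.3% above 10-fold and 20.4% under 3-fold. This background is not matched in level. The median lowest library outside young leaf was 12.1 for the 150, well above the limit of 2.49. In radicle the median level was 85.6 for the 150 and 20.0 for the widely present. The rule rewards a high lowest library, so differences from this background, here and below, can partly come from the rule.

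The highest and lowest tissues of a transcript, here and below, were ranked in the deposited scaling only. Whether the ranks hold under another scaling was not tested. Radicle held the highest mean for 55 of the 150 transcripts (36.7%), germinating seed for 32 (21.3%), crown meristem for 25 (16.7%), young root for 17 (11.3%), vegetative stem for 13 (8.67%), panicle early for 6 (4%) and plumule for 2 (1.33%). None had its highest mean in panicle mid or panicle late. Among the widely present transcripts these shares were 24.4% for radicle, 20.8% for germinating seed, 7.44% for crown meristem, 7.29% for young root, 7.90% for vegetative stem, 7.48% for panicle early, 8.08% for plumule, 6.66% for panicle mid and 9.94% for panicle late. Every library of the highest tissue lay above every library of the next for 70 of the 150 (46.7%) and for 40.03% of the widely present.

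The lowest tissue outside young leaf was most often panicle late, for 65 of the 150 (43.3%), against 16.1% of the widely present transcripts. Panicle early was lowest for 26 (17.3%, against 9.48%) and panicle mid for 15 (10%, against 3.51%). The roots lay the other way: radicle was lowest for 15 of the 150 (10%) and for 28.7% of the widely present, and young root for 13 (8.67%) and 21.2%. Germinating seed was lowest for none of the 150 and for 2.35% of the widely present. The lowest tissue was clear of the next in every library for 51 of the 150 (34.0%) and for 41.7% of the widely present.

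**Figure D3:**
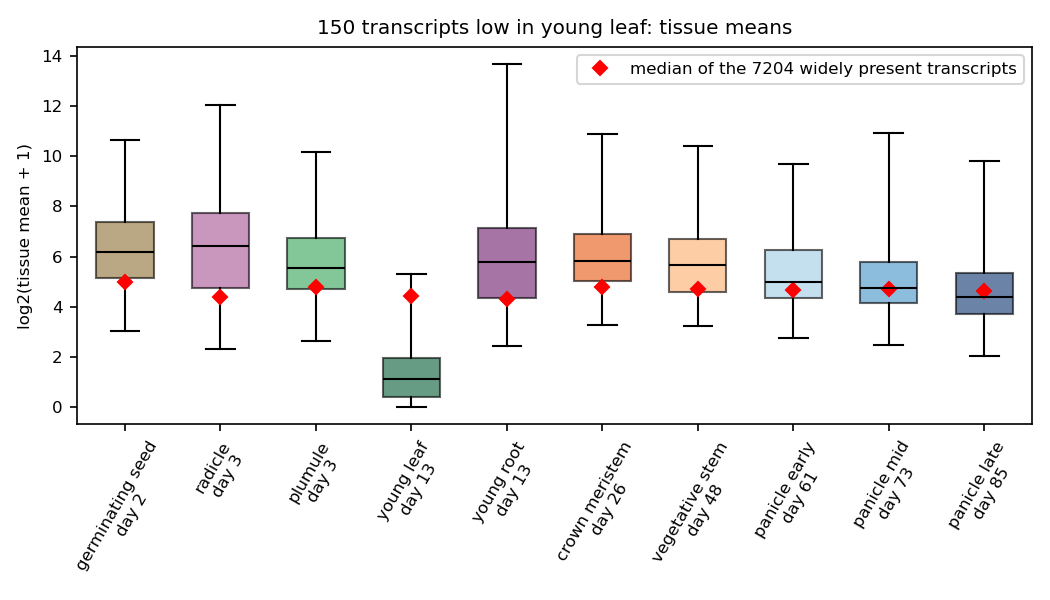
Tissue means of the 150 transcripts as log2(mean + 1), with boxes for the quartiles, whiskers for the lowest and highest transcript, and red diamonds for the median of the 7204 widely present transcripts. Outside young leaf the median of the 150 lies above the diamond from germinating seed through panicle early, slightly above it in panicle mid and below it in panicle late.

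Differences between the other tissues were not what chose the transcripts and could be tested, although the rule favours transcripts with no low library outside the leaf. Tests used limma on log2(value + 1) over all kept transcripts in 7 contrasts. Calls required a log2 difference of 1 or more in either direction and an adjusted p (Benjamini-Hochberg) under 0.05. Of the 150, 20 were called in none of them (13.3%), 40 in 1 (26.7%), 57 in 2 (38.0%) and 33 in 3 or more (22.0%). Of all transcripts tested 51.6% were called in at least 1, and of the widely present 77.2%, with 30.1% in 1, 30.4% in 2 and 16.6% in 3 or more. The log2 differences below are on the log2(value + 1) scale.

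Between the first root and first shoot, 57 of the 150 transcripts were higher in radicle than in plumule and 17 were lower. The shares, 38.0% and 11.3%, compare with 9.65% and 22.7% of all transcripts tested and with 22.5% and 31.8% of the widely present ones. The median log2 difference was 0.64 over the 150, -0.37 over all tested and -0.22 over the widely present.

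TRINITY_DN4213_c0_g1_i4 rose most, with 9.43, 24.6 and 79.1 in plumule and 1909, 1124 and 1573 in radicle (log2 difference 5.76, SE 0.53, limma adjusted p = 6.7e-09). Its young root values, 1336 and 1715, were as high, and those in young leaf were 0, 0 and 0.308. TRINITY_DN4116_c0_g1_i12 was the opposite case, with 348, 412 and 367 in plumule and 7.22, 4.11 and 4.91 in radicle (log2 difference -5.90, SE 0.23, limma adjusted p = 8.3e-15). This transcript was high in the 3-day shoot and had 0.180, 0.0830 and 0.240 in the 13-day leaf.

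The balance of higher and lower transcripts depended on the scaling: with a common sum per library 32 of the 150 were higher in radicle and 46 lower, and with median centring 90 and 10. The median log2 difference over the 150 was -0.19 with a common sum, and 1.47 with median centring. Relative to the median of the widely present transcripts it was higher under each scaling run, by 0.86 in the deposited scaling, by 0.82 for a common sum, by 0.62 after quantile normalization and by 0.90 after median centring. With the libraries of series A alone the median over the 150 was 0.58, and series B holds no plumule library.

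From radicle to young root, 53 of the 150 transcripts were lower in the older root and 15 higher, or 35.3% and 10%. Of all transcripts tested, 7.93% were lower and 10.5% higher, and of the widely present ones 22.5% and 16.4%. The median log2 difference was -0.45 over the 150, 0 over all tested and -0.15 over the widely present. Of the 57 transcripts higher in radicle than in plumule, 35 were lower in young root than in radicle and 3 were higher. These contrasts share the radicle libraries, so the overlap is a description. It was not counted over all tested or over the widely present transcripts, so it is not shown to be particular to the 150.

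The largest fall was that of TRINITY_DN45689_c1_g1_i1, with 503, 363 and 467 in radicle and 38.1 and 71.8 in young root (log2 difference -3.05, SE 0.24, limma adjusted p = 3.6e-09). TRINITY_DN18319_c1_g1_i1 rose most, from 91.0, 117 and 78.5 to 1985 and 1070 (log2 difference 3.94, SE 0.55, limma adjusted p = 1.0e-05). With a common sum 3 of the 150 were higher and 87 lower, and with only radicle and young root in the fit 2 were higher and 12 lower. The median over the 150 minus that over the widely present was -0.30 in the deposited scaling, -0.36 for a common sum and -0.11 after quantile normalization. The median over the 150 was -0.35 within series A, which has 1 young root library, and -0.62 within series B, which has 1 library of each.

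In the shoot, 16 of the 150 transcripts were higher in crown meristem than in plumule (10.7%) and 3 were lower (2.00%). The background was 3.62% higher and 6.43% lower over all tested, and 4.53% and 7.27% over the widely present. The most abundant of the 150, TRINITY_DN12259_c0_g1_i1, rose most, from 180, 284 and 305 in plumule to 2057, 1803 and 1222 in crown meristem (log2 difference 2.72, SE 0.35, limma adjusted p = 9.8e-06). TRINITY_DN28971_c0_g1_i2 fell most, from 34.1, 23.7 and 50.6 to 12.4, 13.7 and 13.5 (log2 difference -1.32, SE 0.34, limma adjusted p = 0.011), and its call was lost with a pseudocount of 0.1, with only these tissues in the fit and without plumule library 3 (adjusted p from 0.0611 to 0.228, and from 0.00365 to 0.0424 over the other alternatives). Higher and lower calls numbered 25 and 1 after quantile normalization, 24 and 1 for a common sum, 10 and 2 with only these tissues in the fit, 9 and 3 without plumule library 1 and 11 and 1 without library 3.

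Between crown meristem and vegetative stem few of the 150 were called. None was called higher in stem by limma, against 1.05% of all tested and 0.986% of the widely present. Called lower were 6 (4%), against 2.45% and 3.51%. At an unadjusted limma p below 0.05, 14 were higher and 32 lower. The largest fall was again that of TRINITY_DN12259_c0_g1_i1, to 226 and 212 in stem (log2 difference -2.91, SE 0.39, limma adjusted p = 6.4e-05). Its call was lost with only these tissues in the fit (adjusted p = 0.101, and at most 0.0249 over the other alternatives). The total of 6 calls became 3 without crown meristem library 1, 3 without vegetative stem library 1, 2 without its library 2 and 1 with only these tissues in the fit, and higher and lower calls were 2 and 7 with quantile normalization and 1 and 6 with a common sum or median centring. All crown meristem libraries are in series A and all stem libraries in series B, so tissue and series cannot be told apart here.

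The panicle libraries and vegetative stem are all in series B. From vegetative stem to panicle early, 36 of the 150 fell (24.0%) and 10 rose (6.67%), where 4.20% of all tested fell and 7.16% rose, and 9.63% and 9.40% of the widely present. TRINITY_DN16473_c0_g2_i1 fell most, from 1077 and 774 to 159, 102 and 93.3 (log2 difference -2.98, SE 0.34, limma adjusted p = 2.1e-06). TRINITY_DN13298_c0_g1_i1 rose most, from 13.0 and 7.27 to 80.3, 163 and 85.1 (log2 difference 3.28, SE 0.39, limma adjusted p = 3.7e-06). Its panicle early level stayed below its young root level of 425 and 304.

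From panicle early to mid, 32 of the 150 fell (21.3%) and 7 rose (4.67%), where 4.98% of all tested fell and 5.76% rose, and 5.71% and 5.52% of the widely present. TRINITY_DN13121_c0_g1_i2 fell most, from 281, 317 and 211 to 8.23, 17.9 and 16.2 (log2 difference -4.21, SE 0.37, limma adjusted p = 3.3e-08). TRINITY_DN24478_c0_g4_i1 rose most, from 11.4, 40.0 and 23.0 to 262, 271 and 206 (log2 difference 3.41, SE 0.34, limma adjusted p = 1.7e-07). With only these tissues in the fit 19 fell and 2 rose.

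From panicle mid to late, 19 of the 150 fell (12.7%) and 2 rose (1.33%), where 5.16% of all tested fell and 2.81% rose, and 6.08% and 2.42% of the widely present. TRINITY_DN3148_c0_g1_i5 fell most, from 56.9, 75.9 and 101 to 18.5, 22.7 and 11.5 (log2 difference -2.10, SE 0.24, limma adjusted p = 2.4e-06). TRINITY_DN1913_c0_g1_i1 rose most, from 4.27, 3.46 and 9.17 to 26.6, 38.5 and 60.7 (log2 difference 2.71, SE 0.37, limma adjusted p = 2.7e-05). Both calls were lost with only these tissues in the fit (adjusted p = 0.0746 and 0.0809, and at most 3.5e-05 and 0.00041 over the other alternatives). In that fit 2 of the 150 fell and none rose by limma. At an unadjusted limma p below 0.05, 47 were lower and 9 higher in it. With a common sum 76 fell and 1 rose, and without panicle mid library 3, as with a pseudocount of 5, 12 fell and 1 rose. Minus that of the widely present transcripts, the median log2 difference of the 150 was -0.34 in the deposited scaling and -0.33 for a common sum.

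Over the 4 later tissues together, the mean fell at every step from vegetative stem through panicle late for 44 of the 150 transcripts (29.3%) and rose at every step for 2 (1.33%), against 11.3% and 7.18% of the widely present. Panicle late lay below vegetative stem for 126 (84.0%), against 55.8%. The median level of the 150 was 49.8 in vegetative stem, 30.9 in panicle early, 26.3 in panicle mid and 19.8 in panicle late, while that of the widely present transcripts was 25.4, 24.8, 25.5 and 23.6.

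**Figure D4:**
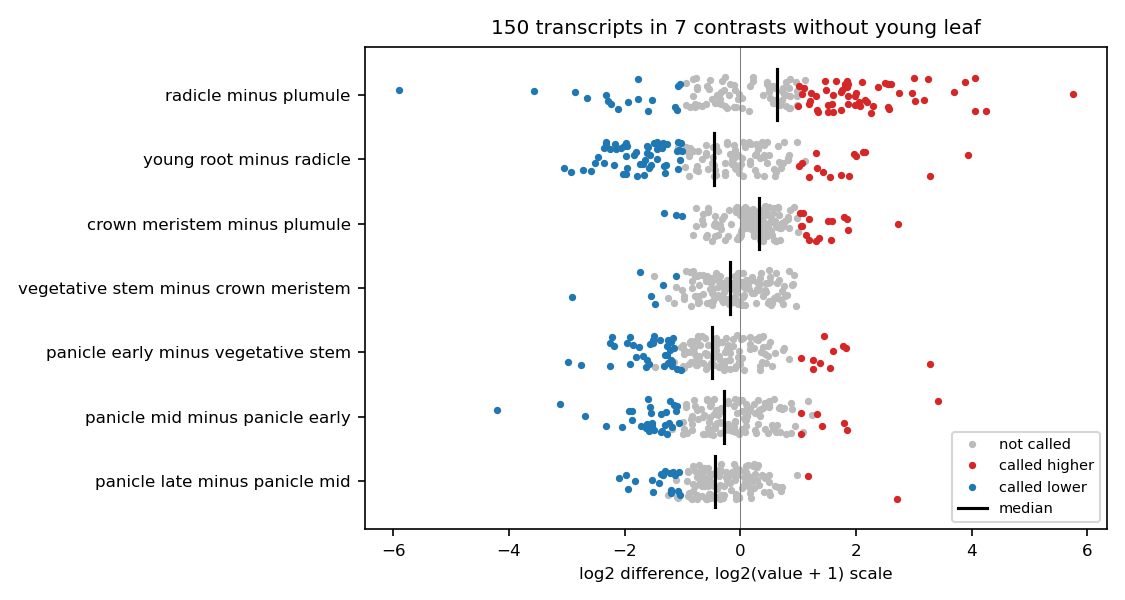
Log2 difference of each of the 150 transcripts in the 7 contrasts that leave out young leaf, on the log2(value + 1) scale, coloured by call, with the median as a black line. The cloud lies to the right for radicle minus plumule and to the left for young root minus radicle and the panicle steps.

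Some of the 150 belong together in the assembly. Trinity groups transcripts that share sequence into components, and the 150 fell into 144 components, with 6 components holding 2 each. Near-identical copies share reads, so such pairs are not independent. The TRINITY_DN780_c0 pair, given above, ranked 2 and 10, and the first lay above the second in 13 of the 25 libraries outside young leaf. In the TRINITY_DN1204_c0 pair, TRINITY_DN1204_c0_g2_i3 lay above TRINITY_DN1204_c0_g1_i3 in all 25, by 1.27 to 3.86 times, and both were highest in radicle and lowest in panicle early. The TRINITY_DN10563_c1 pair differed in profile: TRINITY_DN10563_c1_g3_i1 was highest in radicle and TRINITY_DN10563_c1_g1_i1 in crown meristem. In the other 3 pairs, both transcripts were highest in radicle.

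A further 55 kept transcripts, here called partners, share a component with 39 of the 150 without being among them. They were compared between young leaf and the mean of the other 9 tissues, a contrast that chose the 150 but not the partners, although 13 partners had a score above 1 themselves. By limma, 21 partners (38.2%) were lower in young leaf and 10 (18.2%) were higher, where 11.7% of all tested were lower and 10.6% higher. All 13 with a score above 1 were among the 21 lower partners, and such a score already places young leaf below every other library. The 13 therefore add no separate support. Among the partners without such a score, fewer were lower in young leaf than higher. No share over the widely present transcripts was counted for this contrast. The 55 partners came from 38 components, so they are not independent. The median log2 difference was -0.70 over the 55 partners, the 13 included, and -0.18 over all tested.

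Of the 5 partners with the largest differences, 4 were lower in young leaf. All 4 had scores above 1 and may share reads with their members, so their low leaf values are given as a description. TRINITY_DN25105_c0_g2_i1 had 13.0, 5.20 and 1.69 in young leaf and from 45.1 to 825 elsewhere (log2 difference -4.83), beside its member TRINITY_DN25105_c0_g1_i2 with 4.68, 2.17 and 3.53 in young leaf. The others were TRINITY_DN13250_c0_g3_i1 (-4.40), which was the first transcript left out by the rule, TRINITY_DN24478_c0_g3_i1 (-4.24) and TRINITY_DN2215_c0_g3_i1 (-3.83).

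The fifth was TRINITY_DN740_c0_g1_i1, the partner of TRINITY_DN740_c0_g2_i2. The partner had 574, 610 and 567 in young leaf, 172, 115 and 183 in plumule, 2.30, 0.889 and 1.47 in radicle and 7.02 and 0.954 in young root (log2 difference 4.74, SE 0.34, limma adjusted p = 1.1e-10). The member had 4.71, 3.55 and 3.23 in young leaf, 105, 139 and 114 in plumule, 351, 137 and 144 in radicle and 75.6 and 77.2 in young root. The 2 transcripts of this component were thus mirrored between leaf and root, and their plumule libraries overlapped.

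**Figure D5:**
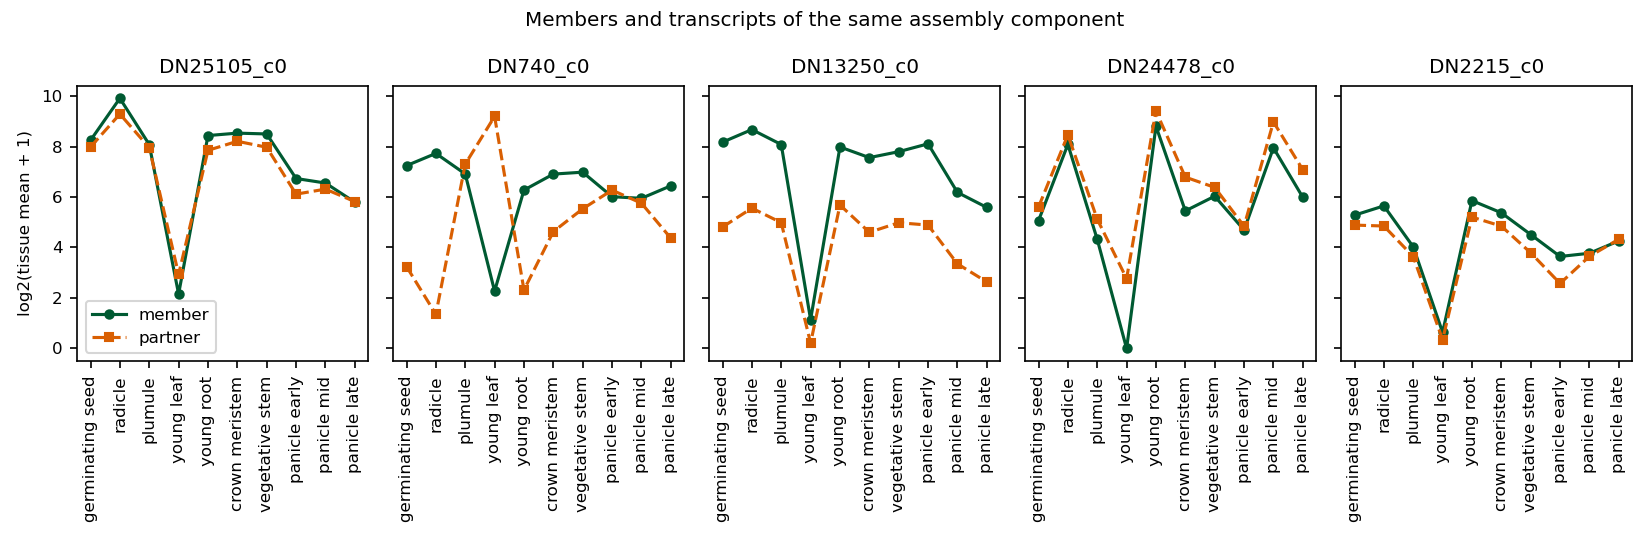
Tissue means, as log2(mean + 1), of the 5 partners with the largest young leaf difference (orange squares) and the member of the same component (green circles). Both lines dip in young leaf in 4 panels, whereas in the DN740_c0 panel the partner is highest in young leaf, where the member is lowest.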

How the data were processed

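RNA-seq libraries of 10 tissues were analysed as deposited, 28 in all. The authors used Trinity for a de novo assembly and kallisto for TPM, per the series design text. The submitters' processing notes also name CASAVA and Trimmomatic, for which no version was given in the sources used here. According to its name, the deposited table holds this expression signal after TMM scaling. No annotation was used here. The 150 transcripts, the contrasts and the lists were chosen with earlier results of these data known.

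Testing was restricted to the 77548 transcripts that reached 1 in 2 or more libraries, all 150 among them. A linear model of log2(value + 1) with a mean for each tissue was fitted to the 28 libraries by limma 3.58.1 (R 4.3.3), with a trended variance and 18 residual degrees of freedom, and was checked on simulated data. Descriptions used Python 3.11.15 and pandas 2.3.3. Named transcripts were the 10 highest scores, the 5 highest means, those on either side of the limit, the largest non-overlapping called rise and fall per contrast, and the 5 called partners with the largest difference. The component pairs were named after their values were seen. Alternatives were other pseudocounts, filters and scalings, a replicate block, the library series as a covariate, fits of the compared tissues only and leaving out each library.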

Additional observations from a re-analysis of the deposited data

How the results depend on the processing

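Replicate numbers did not pair the libraries: among 118 same-numbered pairs of libraries from different tissues, the mean correlation of deviations from the tissue mean was 0.0021, and 3 pairs were over 0.1. With the replicate block the calls were 74 for radicle against plumule, 65 for young root against radicle, 17 for crown meristem against plumule, 6 for vegetative stem against crown meristem, 46, 38 and 19 for the 3 panicle steps and 31 for the partners, each within 1.5 times the count without it.

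Membership moved with the score: 77 of the 150 stayed among the highest 150 with a pseudocount of 0.1, 65 with a pseudocount of 10 and 70 with series A alone, while the 3 rescalings kept 101 to 123 and leaving out single libraries 111 to 150. The count of scores above 1 was 2443 to 2859 without single libraries and 4231 with series A alone, where fewer libraries have to lie above young leaf. Fits of the compared tissues only, which have fewer samples, gave 14 calls for young root against radicle, 12 for crown meristem against plumule, 1 for vegetative stem against crown meristem, 21 for panicle mid against early and 2 for panicle late against mid. That last count was 77 with a common sum and 13 with a pseudocount of 5; the cause was not tested.

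Without single libraries, the calls ran from 72 to 77 (radicle against plumule), 60 to 68 (young root against radicle), 12 to 22 (crown meristem against plumule), 2 to 8 (vegetative stem against crown meristem), 31 to 48, 32 to 41 and 13 to 22 (panicle steps) and 29 to 33 (partners), and all 150 differed among the 9 tissues. Of the 13 named member differences, 9 kept their call under all alternatives run, 4 lost it under some, and none reversed; the 5 named partners kept theirs. The fit of the compared tissues only has no value for the partners, whose contrast uses every tissue. Depth is unknown, so no counting limit can be given for values near 0 in young leaf.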

Other observations

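The same rule was run with each of the 10 tissues in turn as the low one. Young leaf was not the tissue with the most transcripts low in it alone: a score above 1 was reached by 4155 transcripts for radicle, 2442 for young leaf, 1310 for young root, 598 for vegetative stem, 268 for panicle late, 138 for germinating seed, 77 each for crown meristem and panicle early, 69 for plumule and 45 for panicle mid. At a score above 4, however, young leaf had 96, radicle 87 and young root 57, and no other tissue had more than 2. Scores above 4 were counted in the deposited scaling only. The highest score of any tissue was that of TRINITY_DN12185_c0_g1_i21 in young leaf, at 34.5. The highest score was 29.5 for radicle and 22.5 for young root, both above the second score in young leaf, 13.5. Young root and vegetative stem have 1 library fewer than the rest, which makes the rule easier to pass for them.

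These counts moved with the scaling, in alternatives chosen after seeing the data. With a common sum young root had 4428, radicle 2799 and young leaf 1852. With quantile normalization radicle had 2541, young leaf 2062 and young root 1313, and with median centring 3152, 2601 and 1062. Radicle, young leaf and young root had the 3 highest counts under each scaling run.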
